A study of Mus musculus with 14 samples.

Results

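The genes Egr1, Egr2, Egr3, Egr4, Nr4a1, Nr4a2, Nr4a3, Ier2, Ier5 and Ier5l were followed in the cortex and hippocampus of mice depleted of TRF2, the telomere-binding shelterin protein encoded by Terf2. They were taken by gene symbol, and all 10 were found among the 20492 symbols of each deposited table. They fill 12 of the 26348 coding-sequence rows, because Egr3 has 3 rows and the other genes have 1 each. Where a gene has several rows, its level is their sum.

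These genes belong to the immediate early response, the set of genes that a neuron transcribes within minutes of a burst of activity and without new protein synthesis. Calcium entry and MAP kinase signalling act on factors already bound at the promoters, among them SRF with its Elk partners at CArG boxes and CREB at cAMP response elements. The Egr proteins are zinc-finger transcription factors that bind GC-rich sites, the Nr4a proteins are orphan nuclear receptors, and the Ier proteins are small regulators, some of which are found in the nucleus. In cortex and hippocampus some of these genes are used as a record of recent neuronal firing.

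The mice were C57BL/6 and aged 3 months. The series' design text calls the groups wild type and TRF2-DCX-cre, Dcx being a gene of newborn and migrating neurons, whereas the sample labels say control and TRF2 depleted. The labels do not say whether the controls carry Cre or a modified Terf2 allele, nor whether cortex and hippocampus came from the same animals. For cortex they list 4 samples of control mice and 3 of TRF2-depleted mice, for hippocampus 3 of each, and 1 more TRF2-depleted sample carries the names of both tissues. The hippocampus table also holds a condition named DKO. No sample label describes it, so neither its genotype nor its sample number is known here, and it is called DKO below without further meaning. Each condition has 1 pooled value per row, in FPKM (fragments scaled by coding-sequence length and by mapped fragments). No spread between samples can therefore be given, the depth of the libraries is unknown, and every p below is the authors' own. So is every q, except where an adjustment within the cortex table or over rows tested in both tissues is named.

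Cortex values of the targeted gene Terf2, summed over its rows, were 3.59 FPKM (control) and 0.202 FPKM (TRF2-depleted). In hippocampus it was at 2.01 FPKM in control, 0.883 FPKM in the TRF2-depleted group and 0.753 FPKM in DKO. The tissue markers matched the labels: Lamp5, a gene of cortical neurons, was at 56.1 FPKM in control cortex and 6.21 FPKM in control hippocampus, and Spink8, a gene of hippocampal pyramidal neurons, at 0.296 and 7.61 FPKM. Summed FPKM over all genes ran from 159494 to 171147 across the 5 conditions. The tables of the 2 tissues were normalised separately, so levels set side by side across tissues are descriptions.

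In control cortex, Egr1 was the most abundant of the 10 genes at 100.5 FPKM, followed by Egr3 at 45.9, Nr4a1 at 23.0, Ier5 at 22.4, Egr4 at 15.4, Ier5l at 8.47, Egr2 at 6.02, Ier2 at 4.66, Nr4a3 at 2.06 and Nr4a2 at 1.32 FPKM. Egr1 stood above 98.7% of the genes with a value over 0, and Nr4a2 above 35.0% of them. Whether neighbours in this order, such as Nr4a1 and Ier5, differ beyond the spread between samples cannot be told from pooled values.

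The control hippocampus had lower levels of 8 of the 10 genes. Egr1 was at 33.7 FPKM, 2.98-fold below control cortex, and Egr2, known from hindbrain patterning and peripheral myelination, was at 0.927 FPKM, 6.49-fold below. Nr4a2 (Nurr1), best known as a factor that midbrain dopamine neurons need, went the other way, at 7.27 FPKM or 5.52-fold above control cortex. Egr4 (14.2 FPKM) and Nr4a3 (2.36 FPKM) differed least between the control tissues, by 1.09-fold lower and 1.14-fold higher. The median log2 ratio of control hippocampus to control cortex was -1.04 over the 10 genes and 0.10 over 11370 genes with at least 1 FPKM. In bulk tissue, fewer cells of a type and less RNA per cell cannot be told apart.

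**Figure D1:**
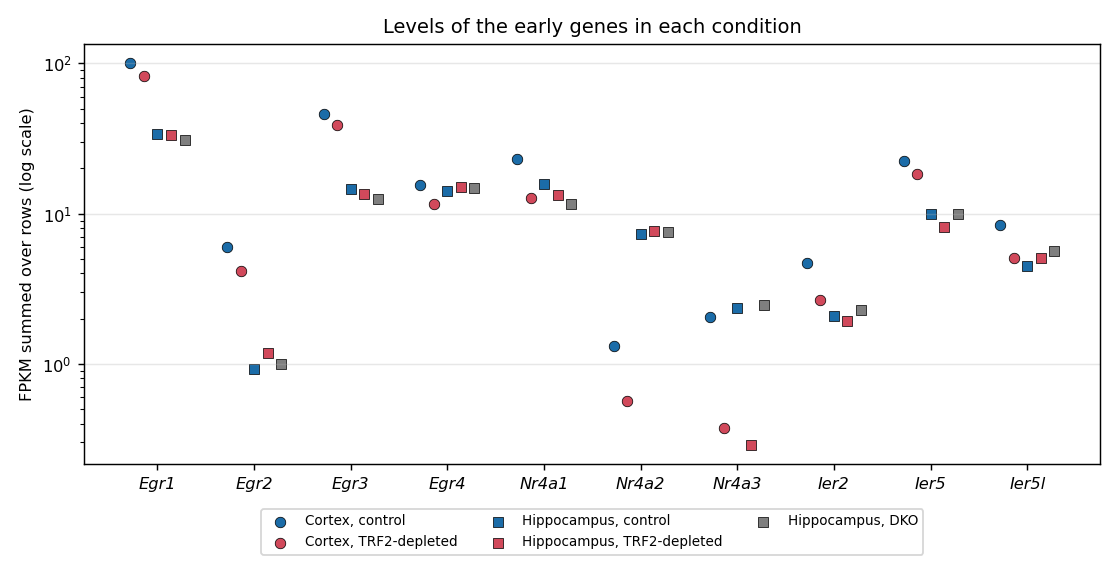
FPKM summed over rows (log scale) of each gene in the 5 conditions, 1 pooled value per point, circles for cortex and squares for hippocampus. In cortex each red circle (TRF2-depleted) lies below its blue circle (control), from 100.5 to 82.4 FPKM for Egr1 down to 2.06 and 0.377 FPKM for Nr4a3, and in hippocampus the points of Nr4a3 lie farthest apart (2.36, 0.287 and 2.46 FPKM).

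In TRF2-depleted cortex all 10 genes were lower than in control cortex, and 1 of them, Ier5l, passed the authors' test at a deposited q of 0.05. Two-sided unadjusted p-values under 0.05 were deposited for 7 of the 10 tested rows, all lower, covering Egr1, Egr2, Egr4, Nr4a1, Ier2, Ier5 and Ier5l. Among all 9536 tested cortex rows, 0.231% were called lower and 0.0734% higher at that q. At an unadjusted p under 0.05, 4.17% were lower and 2.07% higher, and 55.6% were lower by any amount. The median log2 ratio of the 10 genes was -0.64, beside -0.03 over 11084 genes with at least 1 FPKM. The authors did not test Nr4a2 and Nr4a3 in cortex, and the 3 rows of Egr3 had p-values between 0.239 and 0.954 in the authors' deposited table.

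Of the Egr genes, Egr1 (Zif268), a factor that accompanies lasting synaptic strengthening, had 100.5 FPKM in control cortex and 82.4 FPKM after TRF2 depletion. In the authors' deposited table this log2 ratio of -0.29 had p = 0.0018 and q = 0.0957, and the 95% interval implied by that p ran from -0.47 to -0.11. Egr2 was at 6.02 and 4.15 FPKM, which the authors' deposited table gives with p = 0.00065 and q = 0.0555 (log2 ratio -0.54, implied interval -0.84 to -0.23). Egr4, a family member found mainly in the nervous system, was at 15.4 and 11.5 FPKM, with p = 0.00085 and q = 0.0639 in the authors' deposited table (log2 ratio -0.42, implied interval -0.67 to -0.17). Thus 3 of the 4 Egr genes had an implied interval below 0 while none passed at a q of 0.05. The deposited cortex q-values are lower than an adjustment within the cortex table gives, which was 0.264 for Egr1, 0.196 for Egr2 and 0.206 for Egr4.

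Egr3, which muscle spindles need and which neurons induce with activity, is divided over 3 coding-sequence rows. In control cortex these rows were at 6.64, 7.81 and 31.4 FPKM, and in TRF2-depleted cortex at 3.38, 4.34 and 31.2 FPKM. The first and the second row were thus lower by log2 ratios of -0.97 and -0.85 and the most abundant row by -0.01, with q between 0.695 and 0.990 in the authors' deposited table. Summed, Egr3 was at 45.9 and 38.9 FPKM, a log2 ratio of -0.24. In the control hippocampus 91.9% of the sum of 14.5 FPKM was on the first row. In the TRF2-depleted group 54.1% of 13.4 FPKM was on that row, and in DKO 97.6% of 12.4 FPKM. The sum thus differed from control hippocampus by -7.35% and -14.2%, while the third row, at 0.000141 FPKM in control, was at 2.92 and 0.292 FPKM in these conditions. The deposited values cannot show whether transcripts changed or reads were divided differently between rows that overlap.

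**Figure D2:**
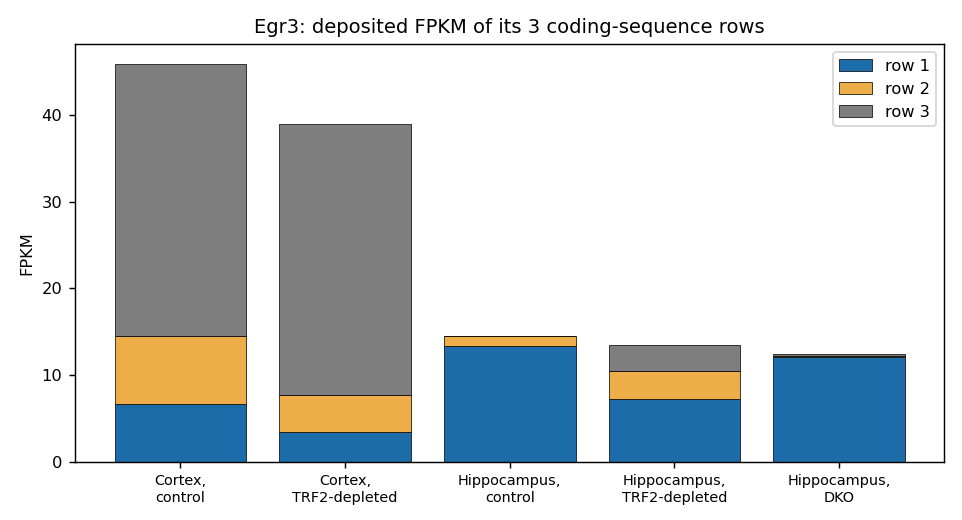
Deposited FPKM of the 3 coding-sequence rows of Egr3 (stacked bars, starting at 0) in the 5 conditions. The sum is 45.9 and 38.9 FPKM in cortex and 14.5, 13.4 and 12.4 FPKM in hippocampus, and the row that holds most of it is row 3 in cortex and row 1 in hippocampus.

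The Nr4a genes had the lowest log2 ratios in cortex as deposited, an order that did not hold for Nr4a2 with a pseudocount. Nr4a1 (Nur77), the family member most often induced by neuronal activity, had 23.0 FPKM in control cortex and 12.7 FPKM after TRF2 depletion, a difference of -44.9%. The authors' deposited table gives it p = 0.00825 and q = 0.222 (log2 ratio -0.86, implied interval -1.50 to -0.22). Nr4a2 was at 1.32 and 0.567 FPKM and Nr4a3 (Nor1) at 2.06 and 0.377 FPKM, log2 ratios of -1.22 and -2.45 without a test. Both lie in the range where small shifts in reads give large ratios: after adding 1 FPKM to each value their log2 ratios were -0.56 and -1.15, and that of Nr4a2 was then above those of Ier5l (-0.64) and Ier2 (-0.63).

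Of the Ier genes, Ier5l, an intronless relative of Ier5 whose role is little described, fell from 8.47 to 5.08 FPKM, a change of -39.9%. In the authors' deposited table its log2 ratio of -0.74 had p = 5e-05, the smallest p deposited, and q = 0.00864 (implied interval -1.09 to -0.38, an upper bound on the error). Adjusted within the cortex table alone it kept q = 0.0341. Ier2, a nuclear protein of the growth factor response, was at 4.66 and 2.66 FPKM, with p = 0.00085 and q = 0.0639 in the authors' deposited table (log2 ratio -0.81, implied interval -1.28 to -0.33). Ier5, known to act on the heat shock factor HSF1, was at 22.4 and 18.4 FPKM, with p = 0.0042 and q = 0.160 in the authors' deposited table (log2 ratio -0.28, implied interval -0.48 to -0.09).

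In TRF2-depleted hippocampus none of the 9 tested genes passed at a deposited q of 0.05 in either direction. By summed level 6 genes were lower and 4 higher than control, with a median log2 ratio of -0.07 beside 0.00 over 11249 genes. An unadjusted p under 0.05 was deposited for 1 of 11 tested rows, the first row of Egr3 (13.3 and 7.26 FPKM, p = 0.0278, q = 0.840 in the authors' deposited table), whose gene sum differed by a log2 ratio of -0.11. Of all 11054 tested rows 0.109% were called lower and 0.0543% higher. At an unadjusted p under 0.05, 2.46% were lower and 2.42% higher, and 49.8% were lower by any amount.

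The differences from control hippocampus ranged from -87.8% for Nr4a3 to 27.8% for Egr2. Among the others, Ier5 differed by -17.5%, Nr4a1 by -16.1% and Ier5l by 13.1%, which is about the size of the cortex differences of Egr1 (-18.0%) and Egr3 (-15.2%). Egr1 had 33.7 FPKM in control hippocampus and 33.1 FPKM after TRF2 depletion, and the 95% interval implied by the authors' p of 0.832 ran from -0.27 to 0.22 on the log2 scale. Egr4 was at 14.2 and 15.0 FPKM (implied interval -0.23 to 0.38), and Nr4a2 at 7.27 and 7.67 FPKM (implied interval -0.43 to 0.58). Ier5l was at 4.47 and 5.05 FPKM, a log2 ratio of 0.18 with an implied interval of -0.33 to 0.68. These intervals bound the differences and do not show that the levels were equal.

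Nr4a3 stood apart in the hippocampus as well. Its level was 2.36 FPKM in control, 0.287 FPKM in the TRF2-depleted group and 2.46 FPKM in DKO. The authors' deposited table gives p = 0.110 and q = 0.886 for the log2 ratio of -3.04 against control, with an implied interval of -6.77 to 0.69, and p = 0.0915 and q = 0.886 for the log2 ratio of 3.10 of DKO to the TRF2-depleted group. With 1 FPKM added to each value these log2 ratios of -3.04 and 3.10 became -1.39 and 1.43. Terf2 itself was at 0.753 FPKM in DKO and 0.883 FPKM in the TRF2-depleted hippocampus. Ier5 had 9.88 FPKM in control hippocampus and 8.14 FPKM after TRF2 depletion (log2 ratio -0.28, p = 0.0567, q = 0.886 in the authors' deposited table), close to its log2 ratio of -0.28 in cortex.

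**Figure D3:**
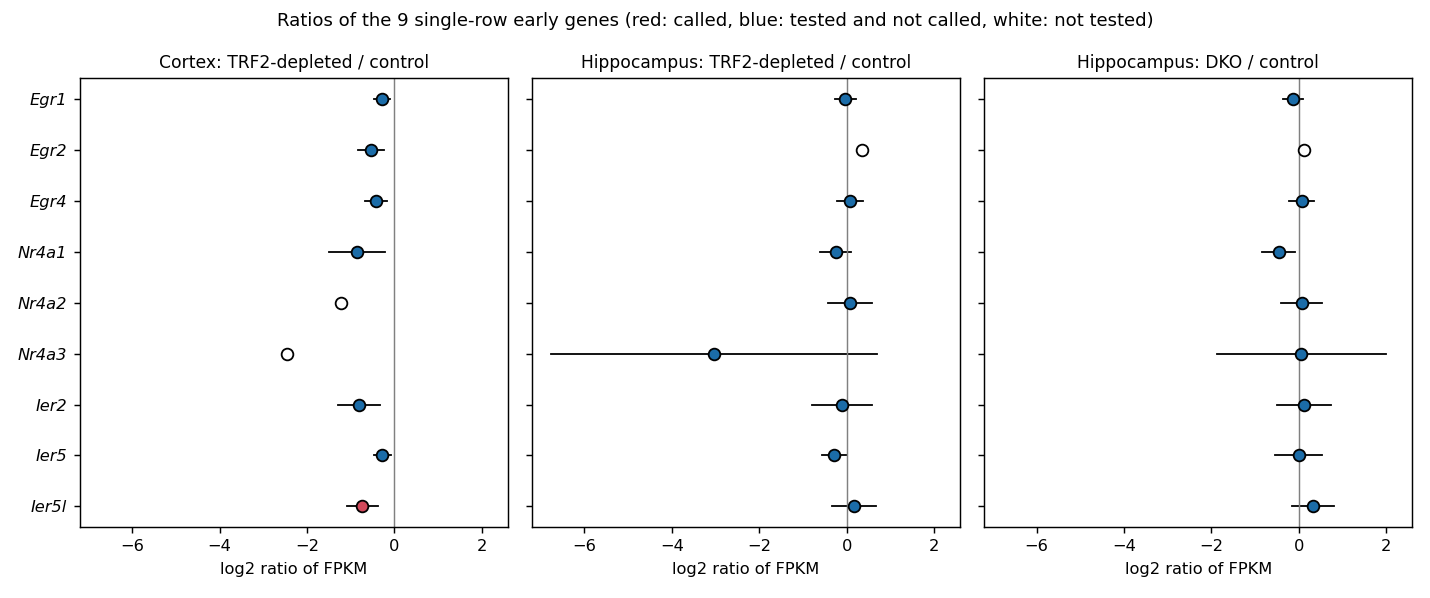
Log2 ratio of FPKM to control for the 9 genes with a single row, in cortex (TRF2-depleted), hippocampus (TRF2-depleted) and hippocampus (DKO), with bars for the 95% interval implied by the authors' p. In cortex the tested genes lie between -0.86 and -0.28 with intervals below 0. In TRF2-depleted hippocampus they lie on both sides of 0 and each interval includes 0, the widest being that of Nr4a3 (-6.77 to 0.69).

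In DKO hippocampus none of the 9 tested genes passed in either direction against control, or against the TRF2-depleted group. The comparisons share the control or the TRF2-depleted samples, so their values are given side by side and are not independent. Against control 4 genes were lower and 6 higher, with a median log2 ratio of 0.06 beside 0.01 over 11271 genes. Nr4a1 had the smallest p, at 15.9 FPKM in control, 13.3 FPKM in the TRF2-depleted group and 11.5 FPKM in DKO. The log2 ratio of DKO to control was -0.46, with p = 0.0158 and q = 0.734 in the authors' deposited table. This was the 1 tested row of 9 that was lower at an unadjusted p under 0.05, beside 2.87% of all 11030 tested rows, and 0 rows were higher at that p, beside 3.83%. Of the 11030 rows 0.118% were called lower and 0.0635% higher, and 48.1% were lower by any amount.

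Against the TRF2-depleted group, Ier5 was higher in DKO, at 8.14 and 9.87 FPKM (log2 ratio 0.28, p = 0.0427, q = 0.886 in the authors' deposited table). It was the 1 of 11 tested rows that was higher at an unadjusted p under 0.05, beside 2.91% of all 11017 tested rows, and 0 rows were lower at that p, beside 1.88%. Of the 11017 rows 0.0726% were called higher and 0.0817% lower, and 48% were lower by any amount. Egr1 was at 33.7, 33.1 and 30.8 FPKM in control, TRF2-depleted and DKO hippocampus, Egr2 at 0.927, 1.18 and 0.999 FPKM without a test, and Ier2 at 2.09, 1.94 and 2.27 FPKM. Of these, Egr2 had the widest range relative to its level.

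The call of Ier5l in cortex and its absence in hippocampus do not by themselves show that the tissues differ. The difference of the log2 ratios (cortex minus hippocampus), with errors implied by the deposited p-values under a normal law, was -0.91 for Ier5l (95% interval -1.53 to -0.30) and -0.50 for Egr4 (95% interval -0.89 to -0.10). For Egr1 it was -0.26 (-0.56 to 0.05), for Nr4a1 -0.61 (-1.34 to 0.12), for Ier2 -0.70 (-1.55 to 0.14) and for Ier5 -0.01 (-0.35 to 0.34). After Benjamini-Hochberg adjustment over the 8423 rows tested in both tissues, 0 rows of these genes passed at 0.05, beside 2 rows of all genes. Pooled values allow no exact test, so the intervals are approximate. The calculation treats the tissues as independent, which the labels do not settle.

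Other early genes differed from control cortex in both directions, with more of them lower than higher. Of a list of 43, 36 genes were tested, 4 fell, 0 rose and 32 did not pass. The 4 were Arc, a regulator of glutamate receptor uptake, Nptx2, a secreted pentraxin of excitatory synapses, the clock gene Per1 and the AP-1 factor Jund. Nptx2 fell from 21.1 to 15.2 FPKM, a log2 ratio of -0.47 that the authors' deposited table lists at q = 0.00864, and Arc had a log2 ratio of -0.42. Per1 had a log2 ratio of -0.41 and Jund of -0.35, and Jund was lost when adjusted within the cortex table (q = 0.159). Of 40 genes of this list with at least 1 FPKM, 28 were lower and 12 higher, with a median log2 ratio of -0.18. Over all 11084 genes at that level 55.2% were lower and the median was -0.03, and 0.231% of all tested rows were called lower. Of 37 tested rows of the list, unadjusted p-values under 0.05 were deposited for 12 that were lower and 2 that were higher. Among all 9536 tested cortex rows these shares were 4.17% and 2.07%. Of the rows that did not pass, Dusp1 had the smallest p and was lower (13.7 and 9.97 FPKM, p = 0.0007, q = 0.0577 in the authors' deposited table). Klf6 (7.69 and 9.80 FPKM, p = 0.00285, q = 0.128) and the activity-dependent factor Npas4 (3.54 and 4.53 FPKM, p = 0.0265, q = 0.370) were higher after depletion in the authors' deposited table, without passing, and were named after their values were seen. In hippocampus 0 of 37 tested genes passed in the TRF2-depleted group. The smallest p-values were those of the matricellular gene Cyr61 (0.954 and 2.21 FPKM, p = 0.0023, q = 0.368) and Gadd45b (4.90 and 6.93 FPKM, p = 0.037, q = 0.886), both higher, in the authors' deposited table. In DKO 0 of 35 passed against control, with Npas4 (1.82 and 2.76 FPKM, p = 0.00735) and Per1 (5.35 and 10.3 FPKM, p = 0.0146) lowest by p in that table of the authors' deposited values.

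Regulators that switch early genes on, a list of 16 with Srf, Creb1, the Elk and Mef2 factors and MAP kinases, had 0 of 13 tested genes past the threshold in cortex. Of 16 measured genes 10 were lower and 6 higher, with a median log2 ratio of -0.11. Over all 11084 genes with at least 1 FPKM 55.2% were lower and the median was -0.03. Of 15 tested rows, unadjusted p-values under 0.05 were deposited for 1 that was lower and 2 that were higher. Among all 9536 tested cortex rows, 4.17% were lower and 2.07% higher at that p. The regulators named next were picked with the values in view. The widest ratios were those of Mef2d (9.16 and 1.59 FPKM, log2 ratio -2.52) and, summed over rows, Mef2c (7.48 and 3.32 FPKM, log2 ratio -1.17), and the authors' deposited table gives Mef2d p = 0.0605. The MAP kinase gene Mapk3 was lower, at 22.6 and 19.2 FPKM, which the authors' deposited table lists with p = 0.0392. Srf had 3.04 FPKM in control cortex and 4.87 FPKM after TRF2 depletion (log2 ratio 0.68, p = 0.0175, q = 0.318 in the authors' deposited table). Partner proteins were the corepressors Nab1 and Nab2, which bind Egr proteins, and the retinoid X receptors Rxra, Rxrb and Rxrg, which can pair with Nr4a1 and Nr4a2. Of these 5 genes 4 were tested in cortex and 0 passed. In cortex Nab2 had 8.07 FPKM in controls and 6.88 FPKM after depletion, and Nab1 4.51 and 3.67 FPKM.

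Marker lists of other cell types were followed in the same comparisons. In cortex the 7 choroid plexus genes summed to 98.4 FPKM in control and 2.64 FPKM in the TRF2-depleted group, with 1 of them at 0 in the latter and Ttr at 93.3 and 1.15 FPKM. Ttr was the 1 choroid gene tested in cortex and was called lower, beside 0.231% of all tested rows. The authors' deposited table gives it p = 5e-05 and q = 0.00864 (log2 ratio -6.34). Striatal genes, whose neurons express Egr and Nr4a genes strongly, summed to 71.6 and 88.5 FPKM over the 10 of 11 listed genes found, and 8 of the 8 measured at 1 FPKM were higher (median log2 ratio 0.23). Over all 11084 genes at that level 55.2% were lower and the median was -0.03. Of 7 tested striatal genes 0 passed. Genes of cortical projection neurons summed to 102.5 and 104.2 FPKM, of which Lamp5 made up 56.1 and 56.8 FPKM. Of these 6 genes 5 were higher and 1 lower, Fezf2, a factor of deep-layer projection neurons. All 6 were tested and 0 passed. Fezf2, named after its values were seen, had 9.35 FPKM in control cortex and 6.94 FPKM after depletion (log2 ratio -0.43, p = 0.00175, q = 0.0944 in the authors' deposited table). In hippocampus, dentate granule neuron genes summed to 137.8 FPKM in control, 85.1 FPKM in the TRF2-depleted group and 92.8 FPKM in DKO. Of 8 tested genes 6 and then 4 were called lower against control, beside 0.109% and 0.118% of all tested rows. Choroid plexus genes summed to 280.3, 496.9 and 10.8 FPKM in the same order, of which Ttr alone made up 263.7, 471.5 and 5.52 FPKM. Of 6 tested choroid genes 0 passed in the TRF2-depleted group and 4 were called lower in DKO against control. Of those with at least 1 FPKM, 7 of 7 were higher in the TRF2-depleted group and 6 of 6 lower in DKO. Genes of meninges and vessels summed to 209.1, 323.6 and 331.1 FPKM, of which Ptgds alone made up 165.2, 264.6 and 283.0 FPKM. Ptgds was the 1 gene of that list called against control, higher in both, beside 0.0543% and 0.0635% of all tested rows called higher. The direction was not that of Ptgds alone. Of the 8 genes of that list, 8 were higher in the TRF2-depleted group (median log2 ratio 0.45) and 7 in DKO (0.27). Over all genes the medians were 0.00 and 0.01. Unadjusted p-values under 0.05 were deposited for 5 of 7 and 2 of 8 tested rows, all higher. Of all tested rows 2.42% and 3.83% were higher at that p. The part of these differences in the levels of the early genes was not tested.

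**Figure D4:**
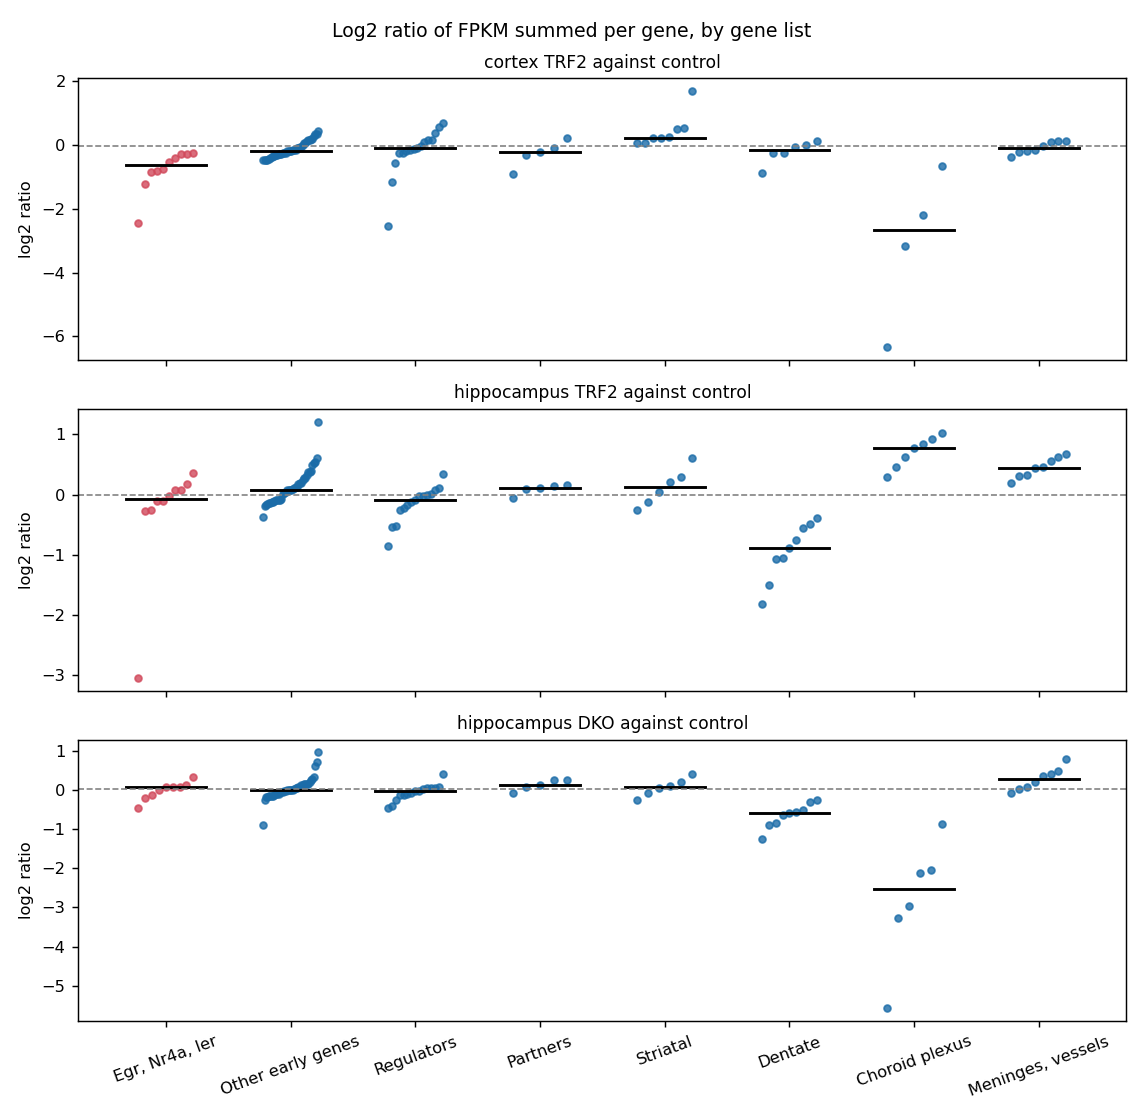
Log2 ratio of FPKM summed per gene for genes with at least 1 FPKM, by list, in 3 comparisons; each point is a gene, the black bar is the list's median and the dashed line the median of all genes. In cortex the Egr, Nr4a and Ier genes (red) lie between -2.45 and -0.24 with a median of -0.64, and in hippocampus their medians are -0.07 and 0.06 while the dentate list lies below 0 in both.

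The structure of the 10 genes, which their choice did not use, differed between the families. In the GENCODE M21 annotation of mm10 their median span was 5287 bases, beside 17403 bases over 21951 protein-coding genes, and 8 of 10 were shorter than that. Nr4a1 (20527 bases) and Nr4a3 (41295 bases) were longer, and Nr4a2 (17174 bases) was near that median. Ier2, Ier5 and Ier5l have 1 exon, the 4 Egr genes 2 exons and the Nr4a genes 7 or 8, beside a median of 7 over protein-coding genes. Ier5l lies on chromosome 2 from 30471537 to 30474219 on the minus strand, with a coding sequence of 1218 bases within its single exon, and Nr4a1 on chromosome 15 from 101254269 to 101274795 on the plus strand. No other annotated gene overlaps any of the 10, and 0 rows of other genes fall in their deposited loci, so their reads are not shared with an antisense or nested gene of that annotation.

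Promoter sequences of 7 of the 10 genes were in the RefSeq table of GRCm38.p6 (mm10), from 250 bases before to 50 after the transcript start. Both strands were searched for TGACG, the core of the cAMP response element that CREB binds, the full element TGACGTCA, which contains it, the CArG box that SRF binds, GCGGGGGCG, an Egr site, AAAGGTCA, the site of an Nr4a monomer, and TATAAA. Each of the 3 Nr4a promoters held 4 matches to TGACG. Among all 32851 promoter windows, 20.8% held at least 1 and 0.231% at least 4. Egr2 and Egr4 held 2 each, beside 5.01% of windows with at least 2, and Ier5 and Ier5l held 0. Egr2 held the 1 CArG box, from 72 to 63 bases before its start, beside 1.63% of all windows. The table holds 5 windows for Egr2, and the one whose start lies nearest to the 5′ end of the deposited locus was used, at 67537869, while the annotated gene begins at 67535475. For Nr4a1 it holds 1 window, with its start at 101266846, while the annotated gene begins at 101254269. The matches of Nr4a1 thus belong to a start inside the annotated gene. TGACGTCA (1.79% of windows) and AAAGGTCA (1.51%) had no match in the 7. GCGGGGGCG (2.91%) matched once, in Nr4a1, and TATAAA (13.6%) once, in Nr4a2. The windows of Nr4a1, Nr4a2 and Nr4a3 were 72.3%, 81.7% and 64.7% GC, beside a median of 52.7% over all promoters. The shares given are over windows of any GC content, and none was computed among windows of similar GC content. A match describes letters in the window and not a bound site.

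The 250 bases before the start are printed for the 3 Nr4a genes, which share the 4 matches, for Egr2, which has the CArG box, and for Ier5l, the gene that was called in cortex. They run 5′ to 3′ on the strand of the gene, with matches to TGACG (or CGTCA on the other strand) and the CArG box in capitals. They cover chr10:67537619-67537868 (plus strand) for Egr2, chr15:101266596-101266845 (plus) for Nr4a1, chr2:57124004-57124253 (minus) for Nr4a2, chr4:48045055-48045304 (plus) for Nr4a3 and chr2:30474200-30474449 (minus) for Ier5l.
Egr2: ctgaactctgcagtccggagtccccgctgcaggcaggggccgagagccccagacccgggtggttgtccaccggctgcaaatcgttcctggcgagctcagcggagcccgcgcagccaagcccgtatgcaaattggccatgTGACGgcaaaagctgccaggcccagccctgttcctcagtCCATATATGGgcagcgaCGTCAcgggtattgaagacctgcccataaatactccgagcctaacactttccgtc
Nr4a1: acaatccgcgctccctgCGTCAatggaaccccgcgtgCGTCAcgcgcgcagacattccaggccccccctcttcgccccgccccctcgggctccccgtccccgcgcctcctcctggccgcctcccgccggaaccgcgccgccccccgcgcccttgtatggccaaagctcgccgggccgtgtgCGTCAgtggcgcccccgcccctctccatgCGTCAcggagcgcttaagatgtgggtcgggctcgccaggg
Nr4a2: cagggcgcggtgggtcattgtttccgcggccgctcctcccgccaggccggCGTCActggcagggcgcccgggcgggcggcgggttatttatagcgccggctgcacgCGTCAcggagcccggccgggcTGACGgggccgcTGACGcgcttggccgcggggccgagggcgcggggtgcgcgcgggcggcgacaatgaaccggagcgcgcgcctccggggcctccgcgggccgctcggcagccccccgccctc
Nr4a3: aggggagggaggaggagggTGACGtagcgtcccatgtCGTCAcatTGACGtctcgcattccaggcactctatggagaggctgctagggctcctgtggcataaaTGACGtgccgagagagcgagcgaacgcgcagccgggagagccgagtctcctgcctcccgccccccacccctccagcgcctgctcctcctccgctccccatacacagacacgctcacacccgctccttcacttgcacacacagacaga
Ier5l: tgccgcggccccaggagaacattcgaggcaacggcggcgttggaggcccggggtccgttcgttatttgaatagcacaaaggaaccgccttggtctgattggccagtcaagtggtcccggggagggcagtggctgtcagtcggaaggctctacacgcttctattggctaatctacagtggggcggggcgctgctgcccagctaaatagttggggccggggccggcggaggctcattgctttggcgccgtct

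**Figure D5:**
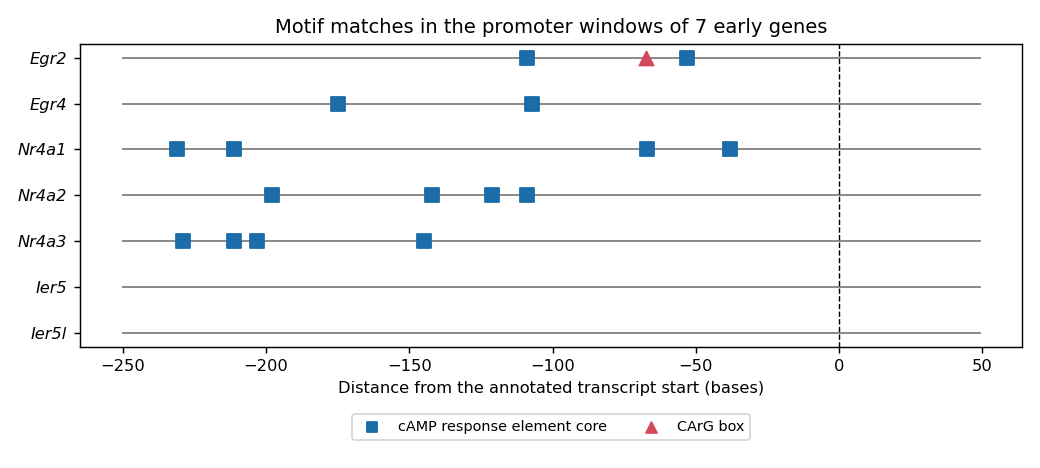
Position of matches to the core of the cAMP response element (squares) and to the CArG box (triangle) in the promoter windows of 7 genes, by distance in bases from the annotated transcript start (dashed line). The Nr4a genes hold 4 squares each, Egr2 and Egr4 hold 2, and Ier5 and Ier5l hold 0.

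The Nr4a genes, with 4 matches each, had cortex log2 ratios of -0.86 for Nr4a1 and, at low levels and without a test, -1.22 for Nr4a2 and -2.45 for Nr4a3. Ier5l, with 0 matches, had the called log2 ratio of -0.74. In the hippocampus Nr4a2, with the same number of matches as Nr4a3, was at 7.27, 7.67 and 7.59 FPKM across control, TRF2-depleted and DKO. Nr4a3 was at 2.36, 0.287 and 2.46 FPKM, and its difference between TRF2-depleted and control had p = 0.110 in the authors' deposited table. Any link between the matches and these levels was not tested.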

How the data were processed

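Total RNA from cortex and hippocampus was sequenced, with RNeasy extraction and NEBNext Ultra libraries per the labels' protocols. CASAVA 1.8, TopHat2, Cufflinks and Cuffdiff and the build mm10 are named in the submitters' processing notes, without their settings. The authors deposited FPKM, with replicates pooled into 1 value per condition, per the file headers, and a p-value and q-value for each row. The p and q of rows marked as not tested were not used. In hippocampus the deposited q-values match Benjamini-Hochberg adjustment over all 3 comparisons to within 5.26e-07. Those of cortex are smaller than such an adjustment within their table in 9421 of 9536 tested rows (largest gap 0.335), for a reason that no source used here gives, so they are the more lenient.

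Samples were grouped by title, and the one with conflicting labels was left in no group. It may or may not be part of the pooled values. Nothing ties samples to animals, so p-values measure the spread between samples as the authors modelled it. FPKM were summed per gene and log2 ratios taken without a pseudocount. A row was called at q of 0.05 or less. The error implied by a deposited p is the log2 ratio divided by the normal quantile of that p, and the calculation of differences between tissues was tested on simulated data. The members, lists and tests were chosen with earlier results of these data known. All 10 members are named, as are called genes of the list of other early genes or otherwise the 2 with the smallest p, up to 2 abundant genes of a marker list, and 5 genes of like pattern. Other names were chosen after values were seen. Lists of deep cortical and claustral neurons and of hippocampal neurons had median cortex log2 ratios of 0.04 and -0.07. In TRF2-depleted against control hippocampus these medians were 0.03 and -0.75. The hippocampal list shares Prox1, C1ql2, Dsp and Lct with the dentate list. Its other genes did not share that median, with log2 ratios of -0.11 for Wfs1, 0.28 for Fibcd1 and 0.47 for Spink8 in that comparison. Alternatives covered the q threshold, the adjustment, a minimum of 1 FPKM, the pseudocount, centring, single rows and a minimum of 5 FPKM. Calculations ran in Python 3.11.15 (scipy 1.17.1, pandas 2.3.3, numpy 2.4.6), and figures were drawn with matplotlib 3.10.9.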

Additional observations from a re-analysis of the deposited data

How the results depend on the processing

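The 1 cortex call, Ier5l, was also the 1 member called at a q of 0.01, when adjusted within the comparison, and over rows with at least 1 FPKM. At a q of 0.1 there were 5 cortex members, all lower: Egr1, Egr2, Egr4, Ier2 and Ier5l. Adjusted within the cortex table, Egr2 had q = 0.196, Egr4 and Ier2 0.206 and Egr1 0.264, so that 4 of the 5 were lost at 0.1 as well. In the 3 hippocampus comparisons the count was 0 in both directions under each of these settings. The median cortex log2 ratio of -0.64 was -0.51 with a pseudocount of 1 FPKM and -0.42 over members with at least 5 FPKM in 1 condition. For single genes, 138 of 148 alternative log2 ratios lay within 0.1 of the reported value and 10 did not. Most of the 148 could not move, so this count does not measure stability. Choosing 1 row leaves genes with 1 row unchanged, and the 5 FPKM minimum leaves every kept ratio unchanged. Centring shifts all genes of a comparison by the same amount, which was below 0.1. The 10 all came from the pseudocount or from the rows of Egr3. Of these 10, 1 changed sign: Egr3 in DKO against the TRF2-depleted hippocampus, at -0.11 summed and 0.74 on its most abundant row. The difference between tissues of Ier5 went from -0.01 to 0.023 when centred on the median of each tissue. Each of the other differences between tissues kept its sign, and none passed. Leaving out a sample could not be run, because the deposited values are pooled. No paired analysis was possible because the tables hold 1 pooled value per condition and no replicate columns. Depth is unknown, so what it limits cannot be computed. Nr4a2 and Nr4a3 in cortex and Egr2 in hippocampus were left untested by the authors.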

Other observations

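Genes outside the lists had ratios like those of the early genes. Among 4552 other genes with at least 5 FPKM in every condition, the 5 nearest to the median log2 ratios of the Egr, Nr4a and Ier genes (-0.64 in cortex, -0.07 in TRF2-depleted hippocampus and 0.06 in DKO) were Mtss1l, Cacna2d3, Smpd3, Dvl1 and Prkrir, at Euclidean distances of 0.0539 to 0.145 over the 3 log2 ratios. Mtss1l had 18.8 FPKM in control cortex, 12.3 FPKM after depletion and 14.7, 13.9 and 15.8 FPKM in control, TRF2-depleted and DKO hippocampus. Cacna2d3, an auxiliary subunit of voltage-gated calcium channels, was at 10.05 and 6.55 FPKM in cortex and at 16.2, 16.4 and 17.5 FPKM in hippocampus. The order rests on 3 ratios of pooled values, of which both hippocampus ratios share the control.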
